A study of Mus musculus with 21 samples.

Results

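Actin, the myosin motors that pull on it and the proteins that build, crosslink, cap and dismantle its filaments were followed in glomeruli, the filtering tufts of the kidney, of mice with antibody-induced glomerulonephritis. The set holds 39 named genes of the 35598 in each deposited table. It was chosen by gene name, but with earlier results of these data known. Comparisons of the set with all genes therefore describe it and are no independent test. It covers the actins, the myosin chains and light chain kinase, the crosslinking proteins and the monomer-binding and severing proteins. The Arp2/3 complex, capping protein and 4 small GTPases complete it. Of these 39 genes, 37 had enough reads to be tested.

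Glomeruli were cut from frozen kidney sections by laser, and their RNA was counted with a 3′ tag method that reads the end of each transcript. The 21 mice were females, 3 months old, of either genotype Epac1fl/fl (called flox here) or its littermate NPHS2Cre:Epac1fl/fl (called cKO here), in which a podocyte-specific Cre removes Epac1, the cAMP-activated exchange factor for Rap GTPases encoded by Rapgef3. Both genotypes carry the floxed allele, and every glomerular cell other than the podocyte keeps Epac1. Mice received nephrotoxic serum (decomplemented, 18,5 µl per g body weight, intravenously on 2 consecutive days), an antiserum that binds the glomerular filter, or PBS. Serum-injected mice were killed on day 4, the early stage (3 flox and 4 cKO), or on day 11, the established stage (4 flox and 4 cKO). There were 3 PBS mice of each genotype, and the labels used here name no day for them.

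Actin monomers assemble into filaments with the help of profilin and of nucleators, among which the Arp2/3 complex makes branched networks. Cofilin severs old filaments, capping protein stops growth at the fast-growing end, and filamin and alpha-actinin tie filaments into networks and bundles. Non-muscle myosin II, switched on through its regulatory light chain, makes the bundles contract, and RhoA, Rac1 and Cdc42 decide which structure is built. In the glomerulus, podocyte foot processes are held in shape by actin bundles, and mesangial and vascular smooth muscle cells are contractile. Smooth muscle alpha actin (Acta2) is a common marker of activated mesangial cells in glomerulonephritis.

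Levels are given as CPM, the gene's reads brought to one common library size after scaling with TMM factors, which correct for differences in library composition. The libraries held between 4550550 reads (cKO day 11 replicate 3) and 24295712 reads, with a median of 19470098, and reads were found for 7871 (cKO day 4 replicate 3) to 13006 genes. Those 2 libraries are named wherever leaving them out changed a call. Reads of Rapgef3 averaged 270.2 ± 60.5 CPM in flox and 121 ± 50.2 CPM in cKO glomeruli under PBS (SD, n = 3 each), 191 ± 58.0 (n = 3) and 119.9 ± 38.8 CPM (n = 4) on day 4, and 204.5 ± 100.7 and 176.9 ± 28.6 CPM (n = 4 each) on day 11, but a 3′ tag may lie outside the deleted part and so checks neither label. All 10 podocyte markers listed had reads, and their summed level lay between 3930.3 and 8683 CPM over the 21 libraries. In tissue of mixed cells, fewer cells of a type and less RNA per cell cannot be told apart.

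The set took a larger share of the reads in most serum libraries than under PBS. The 39 genes together took 1.29% to 1.63% of all reads in the 6 PBS libraries, 1.59% to 2.58% in the 7 day 4 libraries and 1.72% to 2.66% in the 8 day 11 libraries. A single ribosomal RNA gene took 17.3% to 25.4% of all reads under PBS, 14.9% to 23.3% on day 4 and 15.4% to 39.5% on day 11. Of the reads outside that gene, the set took 1.68% to 2.10% under PBS, 1.90% to 3.18% on day 4 and 2.78% to 3.31% on day 11. As summed CPM they ran from 12923 to 16605 (median 15334) under PBS, from 15280.3 to 25081 (median 20699.7) on day 4 and from 20998 to 24915 (median 23041) on day 11. Every day 11 library thus lay above every PBS library in this sum. On day 4, cKO replicate 3 lay within the PBS range and all other libraries above it. The highest, cKO day 4 replicate 4, also lay above every day 11 library. Beta actin alone made up 33.7% to 47.9% of the sum. Without it the other 38 genes summed to 8120.4 to 10593 CPM under PBS, 10134 to 15172 CPM on day 4 and 11602 to 15244 CPM on day 11.

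On day 11, with both genotypes averaged, 3 of the 37 tested genes were called (edgeR quasi-likelihood test, Benjamini-Hochberg adjusted p under 0.05 over all 13898 tested genes), all higher than under PBS: Actb, Flna and Acta2. Over all tested genes, 0.122% were called in this comparison, and 0.115% were called higher. Of the 37, 35 had a log2 fold change above 0, against 52.9% of all tested genes, and their median was 0.58, against 0.07 over all tested genes and −0.01 over the 2724 genes whose log2 CPM averaged 6 or more. An unadjusted p under 0.05 was found for 14, all of them higher (13 without Pfn1, which had no reads in the flox PBS libraries), where 6.17% of all tested genes and 5.14% of those 2724 were higher at that p. On day 4 none of the 37 was called by edgeR (0.0216% of all tested genes were), 9 had an unadjusted p under 0.05, all higher (background 5.36%), and 34 of 37 lay above 0 (background 50.5%) with a median of 0.49, against 0.01 over all tested genes. DESeq2 called 8 of the set on day 4, but it called 9.63% of all genes it tested; limma voom called 1, Myl9 (0.115% of all genes). Without cKO day 4 replicate 3, edgeR called 4 on day 4, Acta2, Actb, Flna and Myl9, where 0.115% of all genes were called.

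**Figure D1:**
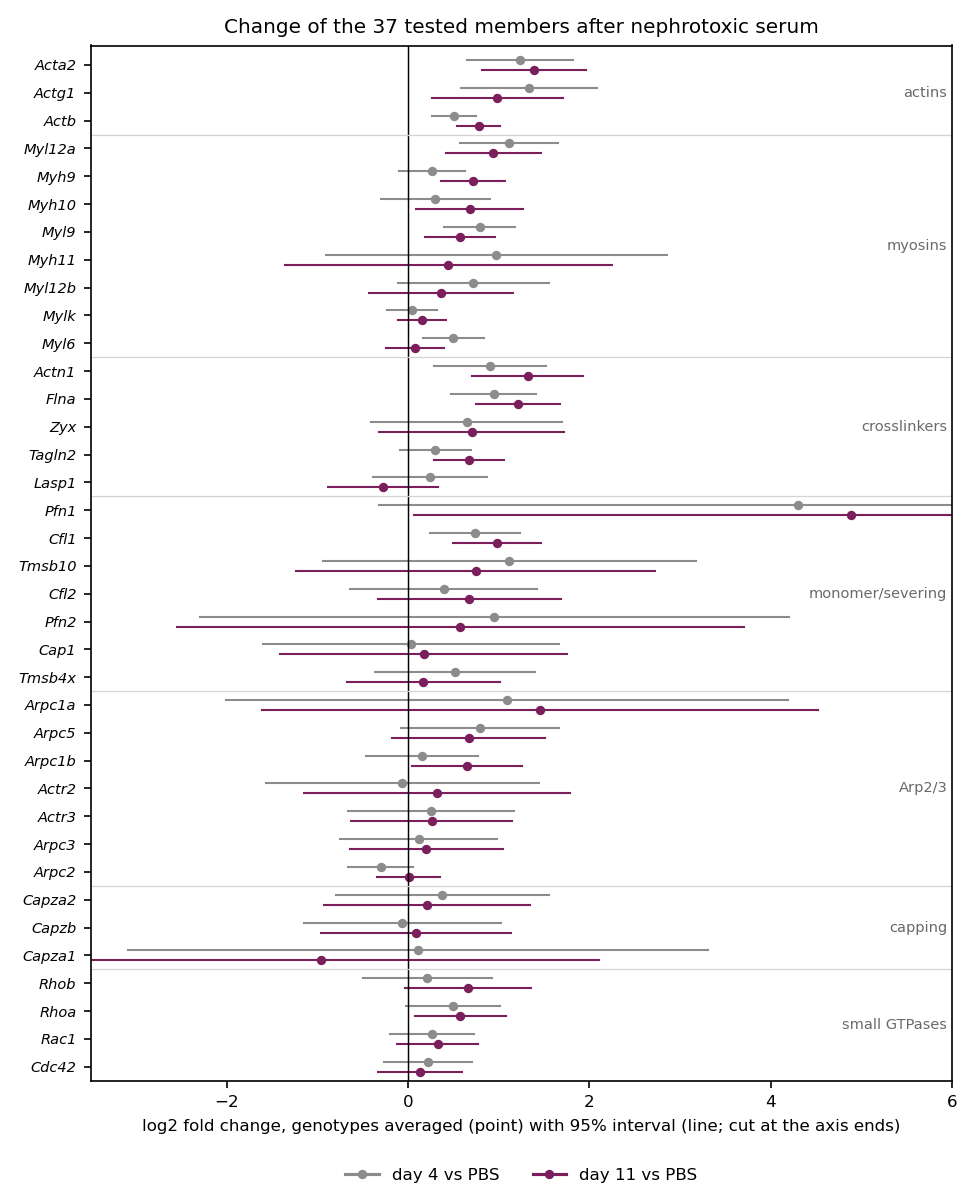
Change of each of the 37 tested genes after serum, as log2 fold change against PBS with genotypes averaged (x axis; points are edgeR estimates, lines 95% intervals, day 4 in grey and day 11 in purple), grouped by role. 35 of the day 11 points lie right of 0; Lasp1 and Capza1 lie left, and intervals are wide for genes with few reads.

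All 3 tested actins lay above 0 at both stages (median log2 fold change 1.23 on day 4 and 0.99 on day 11), and 2 of them were called on day 11. Actb, the beta cytoplasmic actin (ENSMUSG00000029580.14, chr5:142903115-142906754, minus strand, GRCm38), had 6012, 4803 and 6411 CPM in flox and 6571, 5484 and 5674 CPM in cKO glomeruli under PBS. On day 4 it had 8174, 9808 and 8772 CPM in flox and 8417, 7124, 5146 and 9909 CPM in cKO. On day 11 it had 10673, 8544, 11695 and 8837 CPM in flox and 8635, 11111, 10681 and 9842 CPM in cKO. The lowest of the 8 day 11 libraries was above the highest of the 6 PBS libraries. This held for 0.194% of all tested genes and for 0.661% of the 2724 genes whose log2 CPM averaged 6 or more. On day 4 a single library, cKO replicate 3, lay within the PBS range. The day 11 rise was 0.78 ± 0.12 on the log2 scale (SE; adjusted p = 0.00041), and the day 4 difference was 0.50 ± 0.12 (adjusted p = 0.18). Between day 4 and day 11 the difference was 0.28 ± 0.11 (adjusted p = 0.42).

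Acta2, the smooth muscle alpha actin (ENSMUSG00000035783.9, chr19:34241090-34255590, minus strand), had 162, 114 and 281 CPM in flox and 127, 252 and 228 CPM in cKO glomeruli under PBS. On day 4 the flox libraries held 486, 296 and 453 CPM and the cKO libraries 738, 397, 220.2 and 663 CPM. On day 11 they held 249, 362, 474 and 520.0 CPM in flox and 513, 909, 378 and 768 CPM in cKO. Of the serum libraries, cKO day 4 replicate 3 and flox day 11 replicate 1 fell within the PBS range, and all the others were above it. The rise to day 11 was 1.39 ± 0.28 on the log2 scale (adjusted p = 0.029), and the day 4 difference was 1.23 ± 0.29 (adjusted p = 0.18). The day 11 call was lost, with a log2 fold change still between 1.26 and 1.43, when any of 8 libraries was left out: flox PBS replicates 1 and 2 (adjusted p = 0.091 and 0.11), cKO PBS replicates 1 and 3 (0.14 and 0.055), flox day 11 replicates 3 and 4 (0.053 and 0.079) or cKO day 11 replicates 2 and 4 (0.089 and 0.071).

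Actg1, the gamma cytoplasmic actin, ran from 146 to 434 CPM under PBS (median 261), from 321 to 1284 CPM on day 4 (median 614) and from 212 to 1023 CPM on day 11 (median 483). Its log2 difference from PBS was 1.33 ± 0.36 on day 4 (adjusted p = 0.38) and 0.99 ± 0.35 on day 11 (adjusted p = 0.34). Over both genotypes the ranges overlapped at both stages. Actg2, the smooth muscle gamma actin, had reads in a single library (233 reads, cKO day 11 replicate 2) and was not tested.

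**Figure D2:**
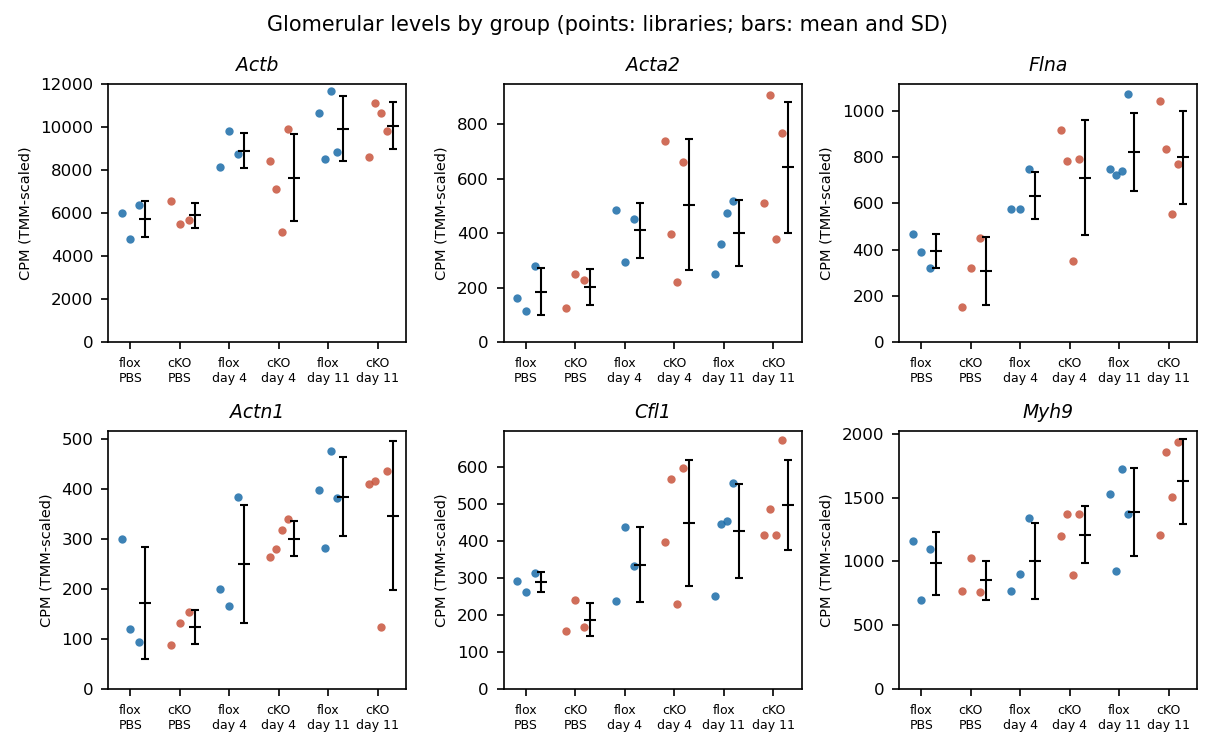
Levels of the 3 genes called on day 11 (Actb, Flna, Acta2) and of Actn1, Cfl1 and Myh9, in TMM-scaled CPM (y axis, from 0) by group (x axis); points are libraries, flox in blue and cKO in red, and bars give the mean and SD. For Actb and Flna all 8 day 11 points stand above the 6 PBS points.

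Actin and myosin genes are classical targets of serum response factor, which binds the CArG box, a 10-base motif with an A and T rich core between CC and GG that reads the same on both strands. The 250 bases before the start of each gene were searched for it in the RefSeq promoter table (GRCm38.p6), where 35 of the 39 genes had an entry. Those of Actb, Actg2, Myh11 and Rac1 were not used. The box was present in 3 of 35 genes of the set (8.57%) and in 439 of 27025 genes overall (1.62%). With 1 G or C allowed in the core, a form added after the strict search, it was in 7 of 35 (20%) and in 9.78% of all genes. The windows of Myl9 and Actg1 are shown, boxes in capitals. Each holds a strict box outside the gene body of the GENCODE M21 annotation. Both genes were higher after serum at an unadjusted p under 0.05, but neither is among the genes called on day 11. The Myl9 stretch lies at chr2:156775263-156775414 on the plus strand and has a strict box followed by a relaxed one; the Actg1 stretch lies at chr11:120348543-120348625 on the minus strand.
Myl9: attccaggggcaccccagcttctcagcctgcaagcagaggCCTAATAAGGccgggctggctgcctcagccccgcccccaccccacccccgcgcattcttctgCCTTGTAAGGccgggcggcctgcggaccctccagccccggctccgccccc
Actg1: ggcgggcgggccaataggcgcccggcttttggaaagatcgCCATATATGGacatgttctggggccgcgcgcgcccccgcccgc

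In Myl9 the strict box lies at chr2:156775303-156775312 and the relaxed box 99 to 90 bases before the start, and in Actg1 the box lies 90 to 81 bases before it. Acta2 had 2 relaxed boxes, CCCTATATGG at chr19:34255448-34255457 and CCTTGTTTGG at chr19:34255398-34255407, which are 84 to 75 and 34 to 25 bases before the RefSeq start and inside the gene body of the GENCODE M21 annotation. Myl6 had the third strict box (CCTTATATGG), also inside the gene body of that annotation, so its window is not shown. The log2 difference of Myl6 from PBS was 0.50 ± 0.16 on day 4 and 0.08 ± 0.16 on day 11. Relaxed boxes were also found in Myl12a, Arpc1a and Flnc. Of the genes called on day 11, Acta2 thus had relaxed boxes only, Flna had neither form and Actb was not searched. These are letter matches in the reference. Binding was not measured, and a window without a match says only that these letters are not in it.

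All 8 myosin genes lay above 0 on day 4 and on day 11, with medians of 0.61 and 0.51, and none was called. Myh9 encodes the heavy chain of non-muscle myosin IIA. It had 1157, 701 and 1096 CPM in flox and 768, 1024 and 763 CPM in cKO under PBS. On day 4 the levels were 772, 900.3 and 1339.8 CPM in flox and 1199, 1373, 897 and 1368 CPM in cKO. On day 11 they were 1528, 926, 1726 and 1367 CPM in flox and 1210.4, 1857, 1506 and 1933 CPM in cKO. One day 11 library, flox replicate 2, lay within the PBS range and the other 7 above it. The log2 difference from PBS was 0.27 ± 0.18 on day 4 and 0.71 ± 0.17 on day 11 (adjusted p = 0.77 and 0.11), and that between day 11 and day 4 was 0.45 ± 0.17 (adjusted p = 0.38).

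The 4 light chain genes had larger estimated differences from PBS on day 4 than on day 11, but between these stages only Myl6 had an unadjusted p under 0.05. Myl12a, a regulatory light chain of non-muscle myosin, had 138, 204.1 and 223 CPM in flox and 207, 336 and 249 CPM in cKO under PBS. The day 4 levels were 461, 396 and 634 CPM in flox and 431, 483, 334 and 629 CPM in cKO. The day 11 levels were 305, 619, 278 and 687 CPM in flox and 642, 320.3, 235 and 352 CPM in cKO. Apart from cKO replicate 3, all day 4 libraries were above the PBS range, whereas 4 of the 8 day 11 libraries lay within it. The log2 differences from PBS were 1.12 ± 0.26 (adjusted p = 0.18) and 0.94 ± 0.26 (adjusted p = 0.22). The Myl12a locus overlaps, on the same strand, a second identifier of Myl12b that took 2052 reads in flox PBS replicate 1. Reads of these genes may be mixed, so the Myl12a level in that library is uncertain.

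Myl9, another regulatory light chain, rich in contractile cells, had medians of 373, 697 and 609.8 CPM under PBS, on day 4 and on day 11, with log2 differences from PBS of 0.79 ± 0.19 and 0.57 ± 0.19 (adjusted p = 0.20 and 0.34). Myl6, the essential light chain, had medians of 1076, 1711 and 1247 CPM. It was lower on day 11 than on day 4 by a log2 difference of −0.42 ± 0.15 (adjusted p = 0.38) and is the one gene of the set with an unadjusted p under 0.05 in that direction. In that comparison none of the 37 genes was called, nor any of the 13898 (0%); Myh9, Actb and Tagln2 were higher on day 11 than on day 4 at an unadjusted p under 0.05 (background 5.1%, and 3.47% lower).

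Myh10, the heavy chain of non-muscle myosin IIB, had medians of 129, 131 and 215 CPM, and its day 11 difference was 0.68 ± 0.29 (adjusted p = 0.43). Mylk, the kinase that switches on the regulatory light chains, differed from PBS by 0.04 ± 0.13 on day 4 and 0.15 ± 0.13 on day 11, with 95% intervals from −0.23 to 0.32 and from −0.12 to 0.42. These are among the narrowest in the set. Myh11, the smooth muscle heavy chain, was uneven within groups: 17.2, 2.21 and 187 CPM in flox under PBS, and 239.5, 129, 0 and 248 CPM in cKO on day 4. Its day 11 difference of 0.44 had an SE of 0.87. Myl12b differed from PBS by 0.36 ± 0.39 on day 11, and it shares its symbol with an overlapping second identifier that took 2052 reads in flox PBS replicate 1, beside 1754 for the identifier used, so its PBS level is uncertain.

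Among the crosslinkers and adaptors 4 of 5 tested genes lay above 0 on day 11 (median 0.70). Flna, filamin A, which joins actin filaments into a network and links them to membrane receptors (ENSMUSG00000031328.16, chrX:74223461-74249820, minus strand), had 469, 392 and 321 CPM in flox and 154, 322 and 449 CPM in cKO under PBS. Day 4 libraries held 575, 575 and 749.7 CPM in flox and 915, 784, 352 and 793 CPM in cKO. Day 11 libraries held 749, 724, 740.4 and 1071 CPM in flox and 1039, 835, 554 and 768 CPM in cKO. All 8 day 11 libraries were above all 6 PBS libraries, and on day 4 only cKO replicate 3 was not. The rise was 1.22 ± 0.23 on the log2 scale on day 11 (adjusted p = 0.0090), and the day 4 difference was 0.94 ± 0.23 (adjusted p = 0.20).

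Actn1, alpha-actinin 1, which bundles filaments in contractile cells, had 300.3, 120.0 and 95.7 CPM in flox and 88.1, 133 and 154.5 CPM in cKO under PBS. After 4 days it had 200.4, 167 and 385 CPM in flox and 264, 281, 319.6 and 341 CPM in cKO. After 11 days it had 399, 284, 476 and 383 CPM in flox and 409.9, 417, 125 and 437 CPM in cKO. Some libraries stood apart from their group: flox PBS replicate 1 and flox day 4 replicate 3 were high. In turn cKO day 11 replicate 3, the library with the fewest reads, was low. The day 11 difference was 1.32 ± 0.30 (adjusted p = 0.068). Leaving out flox PBS replicate 1 gave 1.65 (adjusted p = 0.0099) and leaving out cKO day 11 replicate 3 gave 1.46 (adjusted p = 0.011), so that the gene was called in both cases.

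Tagln2, transgelin 2, an actin-binding protein of many cell types, had medians of 590.0, 657 and 887.5 CPM by stage, with differences from PBS of 0.30 ± 0.19 and 0.67 ± 0.19 (adjusted p = 0.74 and 0.25). Zyx, zyxin, which gathers at strained stress fibres, differed by 0.70 ± 0.50 on day 11. Lasp1, a LIM and SH3 domain protein of focal adhesions, was one of the 2 genes below 0 on day 11 (−0.28 ± 0.30, adjusted p = 1), with a 95% interval from −0.88 to 0.33. Flnc, the filamin of striated muscle, had 119 reads in 5 libraries and was not tested.

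The genes for monomer binding and severing all lay above 0 at both stages (7 of 7, medians 0.73 on day 4 and 0.68 on day 11). This count includes Pfn1, whose averaged sign rests on flox PBS libraries with 0 reads; without it, it was 6 of 6, with a median of 0.63 at each stage. Cfl1, cofilin 1, the main filament-severing protein outside muscle, had 292, 262 and 314 CPM in flox and 158, 239 and 167 CPM in cKO under PBS. On day 4 it had 237, 438 and 333 CPM in flox and 396, 568, 231 and 596 CPM in cKO. On day 11 it had 253, 445, 454 and 556 CPM in flox and 414, 485, 415 and 671 CPM in cKO. On day 11 all cKO libraries and 3 of 4 flox libraries were above the PBS range. The difference was 0.73 ± 0.24 on day 4 (adjusted p = 0.38) and 0.98 ± 0.24 on day 11 (adjusted p = 0.11), and without flox day 11 replicate 1 the latter was called at 1.07 (adjusted p = 0.050). The muscle-type cofilin, Cfl2, differed by 0.68 ± 0.49 on day 11.

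Pfn1, profilin 1, which loads monomers for filament growth, was barely detected in these counts, with reads in 12 of 21 libraries. Whether the 3′ tags or the counting missed its transcript was not tested, so its true level is uncertain. Its read counts were 0, 0 and 0 in flox and 3, 51 and 15 in cKO under PBS. On day 4 they were 12, 4 and 451 in flox and 28, 0, 0 and 0 in cKO. On day 11 they were 0, 39, 0 and 46 in flox and 236, 13, 0 and 130 in cKO. High and low libraries occurred in nearly every group, and no fold change is given with genotypes averaged. A floor of 3 reads was set over the 3 flox PBS libraries. The mean flox level was 166-fold that floor on day 4 and 17.04-fold on day 11. The floor covers counting error under PBS only, and the serum means have no lower bound. These ratios therefore do not bound a difference between groups of mice. The day 4 ratio rests on replicate 3 and was 6.22-fold without it. On day 11, where 2 of 4 flox libraries had 0 reads, the ratio was 12.6-fold without replicate 2 and 10.1-fold without replicate 4. The flox medians of the set, 0.54 on day 4 and 0.52 on day 11, are the same with Pfn1 at this ratio, since it lies above the median either way. In cKO the mean level was lower on day 4 than under PBS (0.326 against 1.11 CPM).

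The thymosins, which hold monomers in reserve, were variable. Tmsb4x had medians of 498, 661 and 349.8 CPM by stage with a day 11 difference of 0.17 ± 0.41, and Tmsb10 had medians of 60.3, 138 and 88.3 CPM with a difference of 0.74 ± 0.95. Pfn2 and Cap1, the latter a cyclase-associated protein that recycles monomers, differed by 0.58 ± 1.53 and 0.17 ± 0.78 on day 11. None of these intervals excluded 0.

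**Figure D3:**
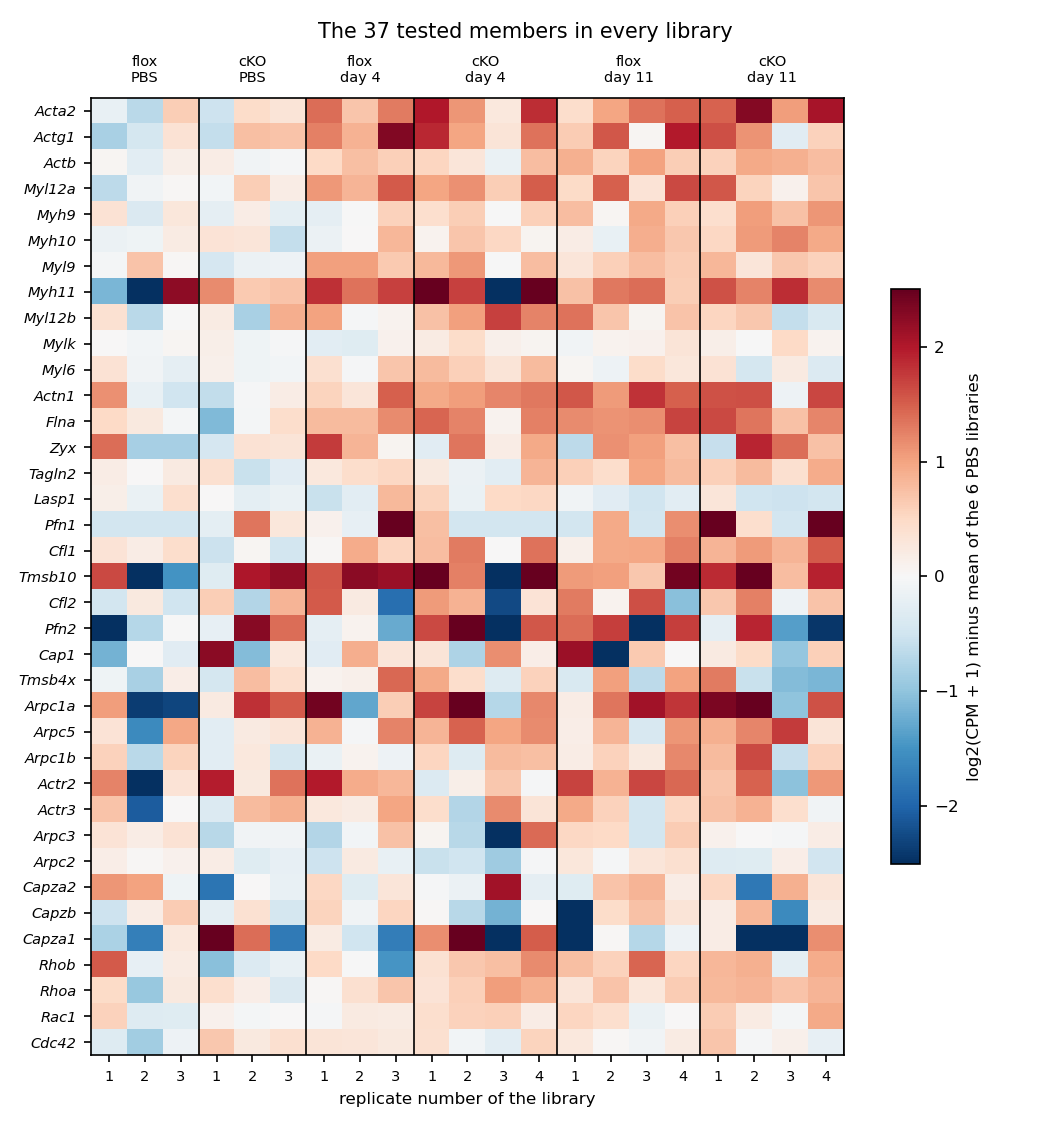
Level of each of the 37 tested genes in every library, as log2(CPM + 1) minus the gene's mean over the 6 PBS libraries (colour, red above and blue below), with libraries in columns by group and replicate number. Actb, Acta2, Flna and Actn1 are red across most serum libraries; Pfn1, Pfn2, Arpc1a and Capza1 change colour within groups.

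Of the Arp2/3 complex, which grows branches on existing filaments, 5 of 7 subunit genes lay above 0 on day 4 (median 0.15) and none had an unadjusted p under 0.05, and on day 11 it was 7 of 7 (median 0.32) with 1 such gene, Arpc1b. Arpc1b had 286, 120.2 and 284 CPM in flox and 159, 232 and 142 CPM in cKO under PBS, and 172, 206 and 176.98 CPM in flox and 281, 153.2, 336 and 325 CPM in cKO on day 4. The day 11 levels were 219, 288, 229 and 448 CPM in flox and 332, 606, 129.6 and 288 CPM in cKO. Each serum group overlapped the PBS group of its genotype, and the day 11 difference was 0.65 ± 0.30 (adjusted p = 0.50). Its locus overlaps Pdap1 on the other strand, a gene with 143639 reads over the libraries, and the sources used here do not give the strand setting of the counting, so reads of the 2 genes may be mixed.

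Arpc5, another subunit, had 77.9, 19.7 and 121 CPM in flox and 50.6, 71.8 and 75.7 CPM in cKO under PBS, and 113, 60.0 and 146 CPM in flox and 111, 171, 123 and 139 CPM in cKO on day 4. Day 11 libraries held 68.4, 111, 45.8 and 133 CPM in flox and 115, 145, 209 and 76.4 CPM in cKO. In cKO all day 4 and all day 11 libraries lay above the PBS libraries, whereas the flox groups overlapped. With genotypes averaged the day 11 difference was 0.67 ± 0.41 (adjusted p = 0.74). Arpc2, a structural subunit at the core of the complex, was measured with a narrower error: its difference from PBS was −0.30 ± 0.18 on day 4 and 0.01 ± 0.17 on day 11, with a 95% interval from −0.34 to 0.36 on day 11. Arpc3, Actr2 (Arp2) and Actr3 (Arp3) had day 11 differences between 0.20 and 0.32 with SEs from 0.41 to 0.72, and Arpc1a one of 1.46 ± 1.51.

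Capping protein, the heterodimer that closes the fast-growing filament end, gave no clear direction (2 of 3 genes above 0 on day 11, median 0.09). Capza1 had 4.58, 1.99 and 10.7 CPM in flox and 58.3, 24.7 and 1.84 CPM in cKO under PBS. The day 4 levels were 10.2, 5.86 and 1.94 CPM in flox and 20.6, 77.8, 0 and 26.7 CPM in cKO, and on day 11 it had 0, 8.95, 4.91 and 7.92 CPM in flox and 10.1, 0.321, 0.224 and 20.8 CPM in cKO. The spread within groups was as wide as that between them, and the day 11 difference was −0.96 ± 1.51 (adjusted p = 1).

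Capza2 had 109, 102 and 47.1 CPM in flox and 13.6, 50.9 and 44.5 CPM in cKO under PBS. Day 4 libraries held 72.9, 40.7 and 63.0 CPM in flox and 49.4, 45.4, 220.4 and 42.9 CPM in cKO, and on day 11 it had 41.1, 84.0, 91.5 and 57.5 CPM in flox and 72.7, 13.9, 94.5 and 62.9 CPM in cKO. The groups overlapped, and the day 11 difference was 0.21 ± 0.56 (adjusted p = 1). For Capzb, the beta subunit, it was 0.09 ± 0.51.

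The small GTPases lay above 0 at both stages (4 of 4, medians 0.24 and 0.45), and none was called. Rhoa, which drives stress fibres and contraction, had 238, 87.97 and 203 CPM in flox and 230.0, 193 and 133 CPM in cKO under PBS, and 175, 227 and 276 CPM in flox and 216, 258, 352 and 316 CPM in cKO on day 4. After 11 days it had 212, 279.9, 209.7 and 266 CPM in flox and 299, 309.8, 282 and 308 CPM in cKO. The 4 cKO libraries on day 11 were close to each other and above all PBS libraries. They were also above all flox day 11 libraries, at the closest with 282 against 279.9 CPM. Such a separation of cKO above flox on day 11 held for 1.23% of all tested genes. The difference from PBS was 0.58 ± 0.25 on day 11 (adjusted p = 0.44), and that between genotypes on day 11 was 0.31 ± 0.32, with a 95% interval from −0.34 to 0.96.

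Rhob, a relative of RhoA that is induced early by stress in many cells, had 326, 97.6 and 129.9 CPM in flox and 54.1, 88.8 and 98.9 CPM in cKO under PBS. After 4 days it had 158, 111 and 39.9 CPM in flox and 147, 179.7, 189 and 256 CPM in cKO, and on day 11 it had 188, 167, 309.9 and 163 CPM in flox and 200.5, 209, 94.9 and 215 CPM in cKO. In cKO all day 4 libraries were above all PBS libraries, whereas the flox groups overlapped. With genotypes averaged the difference from PBS was 0.21 ± 0.35 on day 4 and 0.66 ± 0.34 on day 11 (adjusted p = 1 and 0.58).

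Rac1, which drives sheet-like protrusions, had 405, 217 and 219 CPM in flox and 294, 263 and 273 CPM in cKO under PBS, and 268, 317 and 312 CPM in flox and 363, 407, 413 and 310.4 CPM in cKO on day 4. On day 11 it had 393, 365, 243 and 275 CPM in flox and 424, 314, 263 and 525 CPM in cKO. The difference from PBS was 0.26 ± 0.23 on day 4 and 0.32 ± 0.22 on day 11 (adjusted p = 0.93 and 0.82). All cKO day 4 libraries were above all cKO PBS libraries, whereas the cKO day 11 libraries and both flox serum groups overlapped the PBS group of their genotype.

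Cdc42, which sets polarity and finger-like protrusions and which podocytes need to form foot processes, had 183, 125 and 208 CPM in flox and 366, 269 and 301 CPM in cKO under PBS. On day 4 it had 287, 283 and 270.0 CPM in flox and 301, 217, 190.1 and 335 CPM in cKO, and on day 11 it had 275, 232, 214 and 263 CPM in flox and 372, 225, 249 and 198 CPM in cKO. All flox serum libraries were above the flox PBS libraries, and so were all cKO PBS libraries, whereas the cKO serum libraries overlapped both PBS groups. With genotypes averaged the difference from PBS was 0.22 ± 0.24 on day 4 and 0.13 ± 0.23 on day 11 (adjusted p = 0.995 and 1).

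**Figure D4:**
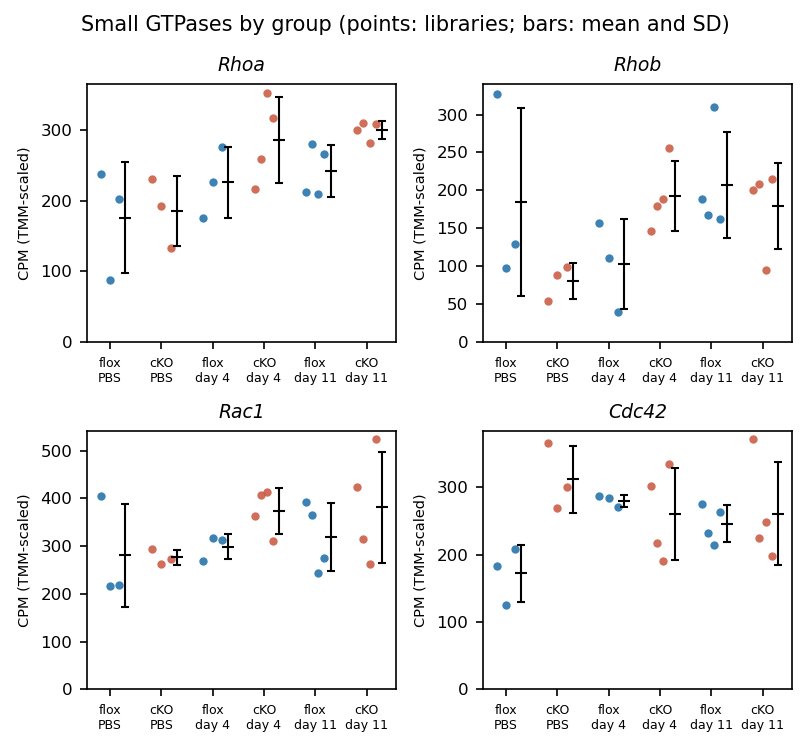
Levels of Rhoa, Rhob, Rac1 and Cdc42 in TMM-scaled CPM (y axes, from 0) by group (x axis); points are libraries, flox in blue and cKO in red, and bars give the mean and SD. The 3 cKO PBS points of Cdc42 stand above the 3 flox PBS points, and the 4 cKO day 4 points of Rhob stand above the 3 cKO PBS points.

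Errors were smaller for genes with more reads. Among the 16 genes of the set whose log2 CPM averaged 8 or more, the median SE of the day 11 difference was 0.22, and 11 had an unadjusted p under 0.05. Among the other 21 it was 0.50, and 3 had such a p. Over both stages 8 genes had an unadjusted p under 0.05 each time: Actb, Actg1, Acta2, Myl9, Myl12a, Flna, Actn1 and Cfl1. Both stages are set against the same 6 PBS libraries, so these are not independent comparisons.

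Within each genotype most genes of the set lay above 0 against the PBS mice of that genotype. In flox 30 of 37 genes lay above 0 on day 4 (median 0.54, background 52.4%) and 33 on day 11 (median 0.52, background 53.2%). In cKO it was 30 on day 4 (median 0.51, background 45.4%) and 27 on day 11 (median 0.55, background 47.5%). No gene of the set was called within a genotype by edgeR, where 0% of all tested genes were called in each comparison except day 11 in cKO, with 0.0504%. At an unadjusted p under 0.05, 7 genes, Pfn1 among them, were higher in flox on day 4 (background 5.55%), 7 in flox on day 11 (5.9%), 10 in cKO on day 4 (2.21%) and 11 in cKO on day 11 (2.59%), and none was lower. Of the 2724 genes whose log2 CPM averaged 6 or more, 3.67%, 3.89%, 3.82% and 3.19% were higher at that p in the same order. DESeq2 called 3, 4, 5 and 8 genes in these comparisons (background 8.63%, 8.71%, 6.08% and 4.91%), and limma voom 0, 1, 1 and 5 (background 0.187%, 0.259% and 0.741% for the last 3).

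All libraries of the serum group lay above all PBS libraries of the same genotype for 8 genes, Pfn1 among them, in flox on day 4 (background 6.81%), 5 in flox on day 11 (3.86%), 6 in cKO on day 4 (1.37%) and 11 in cKO on day 11 (2.75%). Among the 2724 genes whose log2 CPM averaged 6 or more, the shares were 8.37%, 5.1%, 3.82% and 5.4% in the same order. The log2 fold change was above 0 in both genotypes for 24 genes on day 4 and 25 on day 11. It was below 0 in both for Arpc2 on day 4 and for Capza1 and Lasp1 on day 11. For Actb the day 11 difference was 0.79 ± 0.16 in flox and 0.77 ± 0.16 in cKO (adjusted p = 0.15 and 0.089). For Flna it was 1.06 ± 0.32 and 1.37 ± 0.32 (adjusted p = 0.58 and 0.25), and for Acta2 1.11 ± 0.40 and 1.67 ± 0.40 (adjusted p = 0.58 and 0.30).

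**Figure D5:**
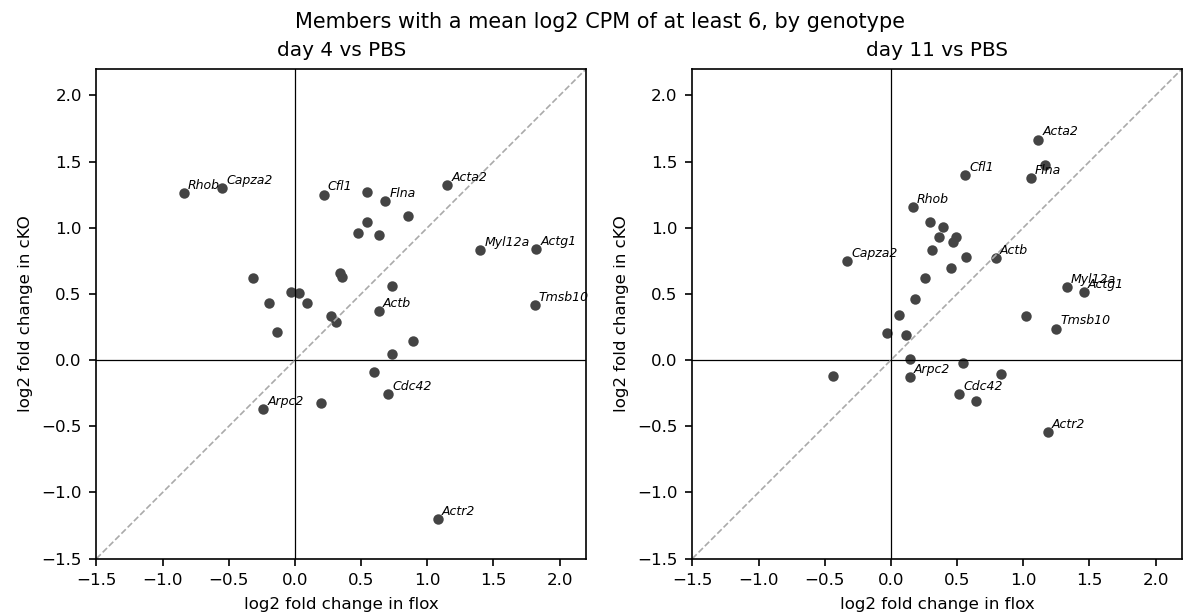
Log2 fold change against PBS in flox (x axis) and in cKO (y axis) for genes of the set whose log2 CPM averaged 6 or more, on day 4 (left) and day 11 (right); points are genes, the dashed line marks equal change, and the solid lines mark 0. Actb, Acta2 and Flna lie above 0 on both axes in both panels; Rhob lies left of 0 on day 4, and Cdc42 below 0 in both panels.

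Between the genotypes no gene of the set was called under PBS, on day 4, on day 11 or with stages averaged (edgeR; over all tested genes 0%, 0%, 0% and 0.0072% were called, and neither DESeq2 nor limma voom called a gene of the set). An unadjusted p under 0.05 was found for 2 genes under PBS (background 6.02%), 0 on day 4 (7.42%), 1 on day 11 (5.86%) and 1 with stages averaged (6.62%). Under PBS these were Cdc42, higher in cKO by 0.86 ± 0.35 (mean 312 ± 49.6 against 172 ± 42.8 CPM, SD, n = 3 each; adjusted p = 0.73), and Rhob, with −1.20 ± 0.52 (80.6 ± 23.5 against 185 ± 124 CPM; adjusted p = 0.73). The Cdc42 libraries did not overlap, which held in that direction for 7.27% of all tested genes. For Rhob the flox mean was raised by replicate 1, at 326 CPM against 97.6 and 129.9 CPM in the others. Pfn1, next in order, had its 0 reads in all 3 flox PBS libraries against 3 to 51 reads in cKO.

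On day 4 the smallest p-values belonged to Mylk (0.36 ± 0.19, adjusted p = 0.69), Rhob (0.91 ± 0.49, adjusted p = 0.72) and Pfn1. On day 11 they belonged to Arpc2 (−0.47 ± 0.22, adjusted p = 0.84), Acta2 (0.68 ± 0.36, adjusted p = 0.89) and Myh10 (0.51 ± 0.37, adjusted p = 1). Arpc2 had 954, 768, 967 and 1043 CPM in flox and 629, 634, 876 and 563 CPM in cKO on day 11, so that 3 of 4 cKO libraries lay below the flox range. With stages averaged, Arpc2 differed by −0.33 ± 0.14 (adjusted p = 0.63), Acta2 by 0.37 ± 0.22 and Cdc42 by 0.28 ± 0.19.

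For many genes the interval of the genotype difference was narrow enough to bound it. With stages averaged the 95% interval lay within 2-fold either way for 27 of the 37, and in the single stages it did for 10 (PBS), 12 (day 4) and 16 (day 11). For Actb with stages averaged it ran from −0.24 to 0.14, for Flna from −0.44 to 0.29, for Rhoa from −0.17 to 0.65 and for Rac1 from −0.18 to 0.55, all on the log2 scale.

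Whether serum acted differently in the 2 genotypes was tested as an interaction, the cKO response minus the flox response. No gene of the set was called at either stage by edgeR, where 0% of all tested genes were called. An unadjusted p under 0.05 was found for 3 on day 4 (2 above 0 and 1 below; background 7.74%) and 0 on day 11 (6.94%). The day 4 term was 2.10 ± 0.71 for Rhob (adjusted p = 0.52): its level was lower after serum than under PBS in flox (103 ± 59.4 against 185 ± 124 CPM) and higher in cKO (193 ± 46.0 against 80.6 ± 23.5 CPM). The flox PBS mean was raised by replicate 1, at 326 CPM against 97.6 and 129.9 CPM in the others. DESeq2 called Rhob in the day 4 interaction, together with 8.54% of all genes it tested. For Cfl1 the term was 1.03 ± 0.49 (adjusted p = 0.63), and for Pfn1 it rests on groups with few or no reads. On day 11 the smallest p-values belonged to Cfl1 (0.84 ± 0.47, adjusted p = 0.79), Cdc42 (−0.77 ± 0.46, adjusted p = 0.84) and Myl12a.

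Regulators of these proteins outside the set were read from a list of 79 genes (further Arp2/3 subunits, WASP and WAVE proteins, formins, Ena/VASP proteins, LIM kinases and other kinases, GTPase regulators, severing and bundling proteins, the coactivators of serum response factor), of which 78 were tested. None was called at either stage. On day 4, 49 lay above 0 with a median of 0.23, and 11 were higher and 5 lower at an unadjusted p under 0.05 (background 5.36% and 3.92%). On day 11, 54 lay above 0 with a median of 0.40, and 10 were higher and 1 lower (background 6.17% and 2.94%).

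The 4 regulators with the smallest day 11 p were Capg, Arhgef12, Nckap1l and Iqgap1. Capg, a gelsolin-family capping protein, ran from 0 to 30.7 CPM under PBS, from 0.76 to 59.1 CPM on day 4 and from 0 to 83.2 CPM on day 11 (adjusted p = 0.12). All 3 flox PBS libraries were at 0, whereas those of cKO held 24.4, 30.7 and 19.4 CPM, and in cKO the differences from PBS were 0.28 ± 1.62 on day 4 and 1.06 ± 1.66 on day 11 (adjusted p = 1 each), so the averaged p rests on the flox libraries at 0. Arhgef12, an activator of RhoA, ran from 422 to 949 CPM under PBS and from 281 to 505 CPM on day 11, with a difference of −0.71 ± 0.20 (adjusted p = 0.25). Nckap1l, the blood cell subunit of the WAVE complex, was at 0 in all PBS libraries and had reads in 4 of 8 on day 11, up to 21.9 CPM. Iqgap1, a scaffold for Rac1 and Cdc42, ran from 328 to 676 CPM under PBS and from 520.3 to 1168 CPM on day 11, with a difference of 0.59 ± 0.20 (adjusted p = 0.34).

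Cell type markers were read beside these genes. Of the 91 list entries tested on day 11 with genotypes averaged, Cald1 and Thsd7a were called. Des counts in both the mesangial and the vascular smooth muscle list. Of 10 vascular smooth muscle markers outside the set, 6 lay above 0 on day 11, among them Cald1, caldesmon (0.90 ± 0.16, adjusted p = 0.0052). Their summed level ran from 1316 to 2098 CPM under PBS, from 1442 to 2419 CPM on day 4, from 1874 to 3184 CPM in flox on day 11 and from 2988 to 3441 CPM in cKO on day 11. The markers below 0 were Rgs5 (−1.09 ± 0.33, adjusted p = 0.33), Synpo2, Pln and Lmod1. Synpo2 was at 0 in all day 11 libraries and Pln in those of cKO. Of 12 macrophage markers 9 lay above 0 on day 11 (median 0.88), and their sum ran from 282 to 529.8 CPM under PBS and from 247 to 791 CPM on day 11, with Adgre1 at 0 in all cKO day 11 libraries. Of 10 mesangial markers 4 lay above 0 on day 11 (median −0.24), with sums from 2487 to 3723 CPM under PBS and from 1998 to 4161 CPM on day 11, and Postn at 0 in the cKO PBS libraries. Of 10 endothelial markers 5 lay above 0 (median 0.04), with sums from 5001.8 to 7546 CPM under PBS and from 3513 to 6225 CPM on day 11.

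Of 10 podocyte markers 8 lay below 0 on day 11 (median −0.50), among them Thsd7a (−1.80 ± 0.20, adjusted p = 6.8e-06). The podocyte sum ran from 5946 to 8226 CPM under PBS, from 5077 to 8119 CPM in flox on day 11 and from 3930.3 to 6511 CPM in cKO on day 11. Of 10 proximal tubule markers 9, of 8 distal nephron markers 7 and of 5 red cell markers all lay below 0 on day 11. Their part in the levels of the actin genes was not tested.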

How the data were processed

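The deposited tables give, for each of the 21 libraries, the estimated count of reads per gene (column NumReads, per the file headers) under versioned Ensembl identifiers. The submitters' processing notes name FastQC, fastp, DRAGEN, Picard and mm10. The sources used here do not give the annotation release, strand setting or treatment of duplicates. Estimated counts, of which 95.2% of those above 0 were whole within 0.005, were rounded. Symbols and GRCm38 coordinates came from GENCODE M21, matched without version, for 35513 of 35598 identifiers (99.8%), and promoters came from RefSeq GRCm38.p6.

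Genes passing edgeR's filter (minimum count 10) were fitted with edgeR 4.0.16 in R 4.3.3 on the 6 groups, with TMM factors of 0.751 to 1.12, quasi-likelihood tests, 15 residual degrees of freedom and Benjamini-Hochberg adjustment over 13898 genes. Averaged comparisons weight both genotypes equally. SE is of the log2 fold change. Figures used matplotlib 3.10.9. Scripts were tested on simulated data. Alternatives were DESeq2 1.42.0, limma 3.58.1 voom, other scaling, filters and designs, and leaving out libraries.

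Values in every library are given for Actb, Acta2, Rhoa, Rac1, Cdc42, for genes called in any comparison and, in each role class, for the 2 with the smallest unadjusted p on day 11 with genotypes averaged. Between genotypes the 3 with the smallest p are named, and of the regulators 4. Other genes are summarised by stage. The genes and lists were chosen with earlier results of these data known. Each library is 1 mouse per the labels. Counting error and the spread between mice both enter the SE. Protein-coding genes overlapping on the other strand with reads of their own are Ppt1 for Cap1, Pdap1 for Arpc1b, St7l for Capza1, Tcta for Rhoa, Snx32 for Cfl1, Daglb for Rac1, Epha1 for Zyx and Myom1 for Myl12a, so levels of these 8 genes are uncertain. Antisense genes with few reads overlap Mylk (1700119H24Rik, 41 reads) and Actn1 (Gm47766, 3 reads).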

Additional observations from a re-analysis of the deposited data

Results flagged for a closer look

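Of 57 groups of 4 libraries checked for a library far from the other 3 (the gap to the nearest library divided by the range, against Dixon's 95% critical value, which chance passes in about 1 of 20), 5 had one. Flna stood at 1071 CPM in flox day 11 replicate 4. Actn1 stood at 125 CPM and Rhob at 94.9 CPM in cKO day 11 replicate 3, the library with the fewest reads. Capza2 stood at 220.4 CPM in cKO day 4 replicate 3, the library with the fewest genes detected, and Pfn1 at 1.30 CPM in cKO day 4 replicate 1, where the other 3 had no reads.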

How the results depend on the processing

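The day 4 count with genotypes averaged, 0 by edgeR, was 8 with DESeq2, 1 with limma voom, 4 with no low count filter and 4 without cKO day 4 replicate 3 and cKO day 11 replicate 3. It ranged from 0 to 4 when single libraries were left out, reaching 4 without cKO day 4 replicate 3. The day 11 count, 3, was 10 with DESeq2, 7 with limma voom, 6 with no low count filter, 5 without those 2 libraries and 6 when p-values were adjusted over the 2724 genes whose log2 CPM averaged 6 or more, an alternative chosen after seeing the data. It ranged from 2 to 4 when single libraries were left out. Over all genes tested, the shares called on day 4 were 0.0928% with no low count filter and 0.123% without the 2 libraries, and on day 11 they were 8.93%, 0.648%, 0.213%, 0.269% and 1.32% in the order given.

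With the replicate number as a block it was 1, Actb (0.072% of all genes), where Acta2 (1.26, adjusted p = 0.19) and Flna (1.14, adjusted p = 0.089) lost their calls. Libraries sharing a replicate number had no common deviation over all tested genes. Of 48 such pairs, 0 had deviations correlated over 0.1 (−0.051 to 0.030), and 3 libraries correlated best with their own number. The median correlation was −0.0013, against −0.0014 for pairs with different numbers. This check takes all tested genes together, many of them with few reads. It therefore cannot exclude a block effect on single genes such as Acta2 and Flna. Actb kept its day 11 call in all 24 alternatives, and no gene given in every library reversed its day 11 direction in an alternative run for it (24, or 23 for Pfn1 and Capza1, which are not among the abundant genes).

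Within genotypes, the count of 0 became 3 (flox day 4), 4 (flox day 11), 5 (cKO day 4) and 8 (cKO day 11) with DESeq2, 1, 1 and 5 for the last 3 with limma voom, and, for flox and cKO on day 11, 1 and 3 with no low count filter (0.0218% and 0.0655% of all genes), 1 and 2 without the 2 libraries (0.0435% and 0.0943%) and 1 and 2 with the adjustment over abundant genes (0.184% and 0.404%). With median-ratio size factors it was 1 for cKO day 11 (0.0576%). The day 4 interaction had 1 gene called with DESeq2, Rhob. The fit on the compared groups alone was not run for the genotype difference with stages averaged, which uses all 6 groups. 3 genes with few reads had wide errors on day 11, with SEs of 2.36 for Pfn1 and 1.51 for Capza1 and Arpc1a.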
